A study of Mus musculus with 17 samples.

Results

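The genes described here are the synaptic vesicle and presynaptic release genes, 67 of the 23284 genes in the deposited count table. They were chosen by symbol alone: every synaptotagmin, numbered syntaxin, syntaxin-binding protein, VAMP, complexin, synapsin, SV2 protein and synaptojanin in the table, with Snap25, Syp, the RIM genes, Unc13a, Bsn and Pclo. By role they comprised 17 synaptotagmins, 5 core neuronal SNAREs, 18 other syntaxins and VAMPs, 7 syntaxin-binding proteins, 4 complexins, 7 active zone and priming genes, 7 vesicle proteins and 2 synaptojanins. Messenger RNA came from upper cortex, somatosensory and parietal, of mice with a conditional deletion of Tsc1 driven by the recombinase Cre under the mouse Gfap promoter. Tsc1 encodes hamartin, which restrains the kinase mTOR, and mutations of it cause tuberous sclerosis. The 17 libraries fell into 4 groups: mGfapCre+:Tsc1CKO mice at 15 weeks of age (n = 4) and at 4 weeks (n = 5), here called Tsc1CKO, and mGFAPCre+ littermate controls at 15 weeks (n = 3) and at 4 weeks (n = 5). All were on a Bl6/129S mixed background, and the controls are labelled as carrying the Cre transgene too. The labels do not give which cells had recombined, nor whether libraries came from separate animals, and the p-values below therefore measure only the spread between these libraries.

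At a synapse, neurotransmitter is stored in vesicles that dock and are primed at the active zone, a protein scaffold on the presynaptic membrane. A vesicle SNARE, VAMP, zips together with the membrane SNAREs syntaxin and SNAP-25, under the control of Munc13 and complexin, and calcium binding to a synaptotagmin sets off fusion. Many of these families also have members that work in other membrane traffic, at the Golgi, endosomes or the surface of non-neuronal cells.

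Total counts per library ranged from 13492007 to 24583430, so a count of 0 in the 17 libraries allows between 0.121 and 0.217 CPM (counts per 1000000 of the library, scaled with TMM factors over all genes), for counting error only. All 8 excitatory neuron genes used to check the labelled tissue were counted in every library. Counts of Tsc1 itself, which sum over all its exons and so need not show a deleted part, spanned 82.7 to 129 CPM in 15-week Tsc1CKO libraries and 115 to 133 CPM in their controls, with a log2 change of -0.20 ± 0.16 (SE) and an adjusted p of 0.449 (edgeR's quasi-likelihood test). At 4 weeks the ranges were 79.7 to 98.8 and 84.4 to 99.4 CPM and the log2 fold change -0.00 (adjusted p = 0.983). At 15 weeks 2 Tsc1CKO libraries stood apart from the rest. In replicate 4 a set of release genes lay at or near the control level while the other 3 Tsc1CKO libraries lay far from it, and in replicate 2 the genes with the longest transcripts were low relative to those with the shortest, with a log2 difference of -1.01 from the controls, against -0.46 in replicate 1 and -0.16 to 0.09 in the 5 other libraries of that age. The ribosomal RNA precursor Rn45s took 10.7% of counts in replicate 2 and 7.27% in replicate 4, where replicates 3 and 1 had 5.28% and 5.73% and controls between 4.58% and 5.45%. The pituitary hormone gene Gh was at 52.7 CPM in that replicate 2 and between 0 and 2.69 CPM in the other 15-week libraries. At 4 weeks Gh ranged from 0.0404 to 347 CPM.

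In the 15-week controls the release genes covered a wide range of levels, compared per kilobase of exon (RPKM, from the CPM and GENCODE lengths). Snap25, the membrane SNARE that supplies a pair of helices to the fusion complex, was highest at 611 ± 51.6 RPKM (SD, n = 3). It was followed by the SNARE-binding complexins Cplx1 at 367 ± 19.5 and Cplx2 at 304 ± 21.8 RPKM and by the vesicle SNARE Vamp2 at 302 ± 9.98 RPKM (SD, n = 3 each). Lower were the calcium sensor Syt1 at 272 ± 14.7, the vesicle membrane protein Syp at 265 ± 10.7 and the vesicle-coating synapsin Syn1 at 220.4 ± 6.4 RPKM (SD, n = 3 each). The steps from Cplx2 to Vamp2 and from Syt1 to Syp were smaller than the larger SD of each pair, so these neighbours did not differ beyond their spread. In all, 12 members were at 100 RPKM or more and 6 of the 66 members with an exon length were under 1 RPKM, and 44 of the 65 steps between neighbours in the order were smaller than the larger of the neighbours' SDs. Among the synaptotagmins Syt1 was followed by Syt11 at 176 ± 7.2, Syt4 at 88.7 ± 1.69, Syt13 at 86.6 ± 5.03 and Syt5 at 81.7 ± 3.19 RPKM, with Syt7 at 52.2 ± 5.44 and Syt2 at 7.32 ± 0.36 RPKM. Syn2 was at 99.8 ± 3.73 and Syn3 at 5.25 ± 0.736 RPKM, Vamp1 at 22.8 ± 2.5, Synj1 at 64.7 ± 2.21 and Synj2 at 14.2 ± 2.59 RPKM, while Sv2b and Sv2a lay closer together at 122 ± 10.2 and 106 ± 3.66 RPKM (SD, n = 3 each).

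The first comparison asked which release genes differed between Tsc1CKO and control cortex at 15 weeks. Of the 62 members that passed the filter on low counts, 3 were lower in Tsc1CKO at an adjusted p under 0.05 by edgeR's quasi-likelihood test, Synj2, Syt2 and Stxbp6, and 1, Vamp8, was higher. Among the 15015 genes tested in this comparison, 0.42% were called lower and 3.36% higher. The median log2 fold change of the 62 tested members was -0.09, beside 0.02 over all genes tested. Of the 62 values 42 were negative, beside 7159 of the 15015 over all genes. With DESeq2 the same counts gave 10 lower members (Rims3, Snap25, Stx1a, Stxbp6, Synj2, Syt1, Syt16, Syt2, Unc13a and Vamp1; background 4.41% lower) and 3 higher (Sv2c, Syn2 and Vamp8; background 8.42% higher). Without Tsc1CKO replicate 4, edgeR gave 12 lower members (background 9.8%) and 5 higher (background 13.4%). Replicate 4 was singled out by its values for release genes. Smaller p-values for them without it, here and below, follow in part from that choice and are no separate support. Leaving out any other single library left between 0 and 4 members called lower and 0 or 1 higher: 0 and 0 without any 1 control or without Tsc1CKO replicate 1, 1 lower and 0 higher without replicate 3, and 4 lower and 1 higher without replicate 2. The values of the groups did not overlap for 14 members that lay below the controls, where 14.2% of all genes did, and for 3 members above them (10.7% of all genes).

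**Figure D1:**
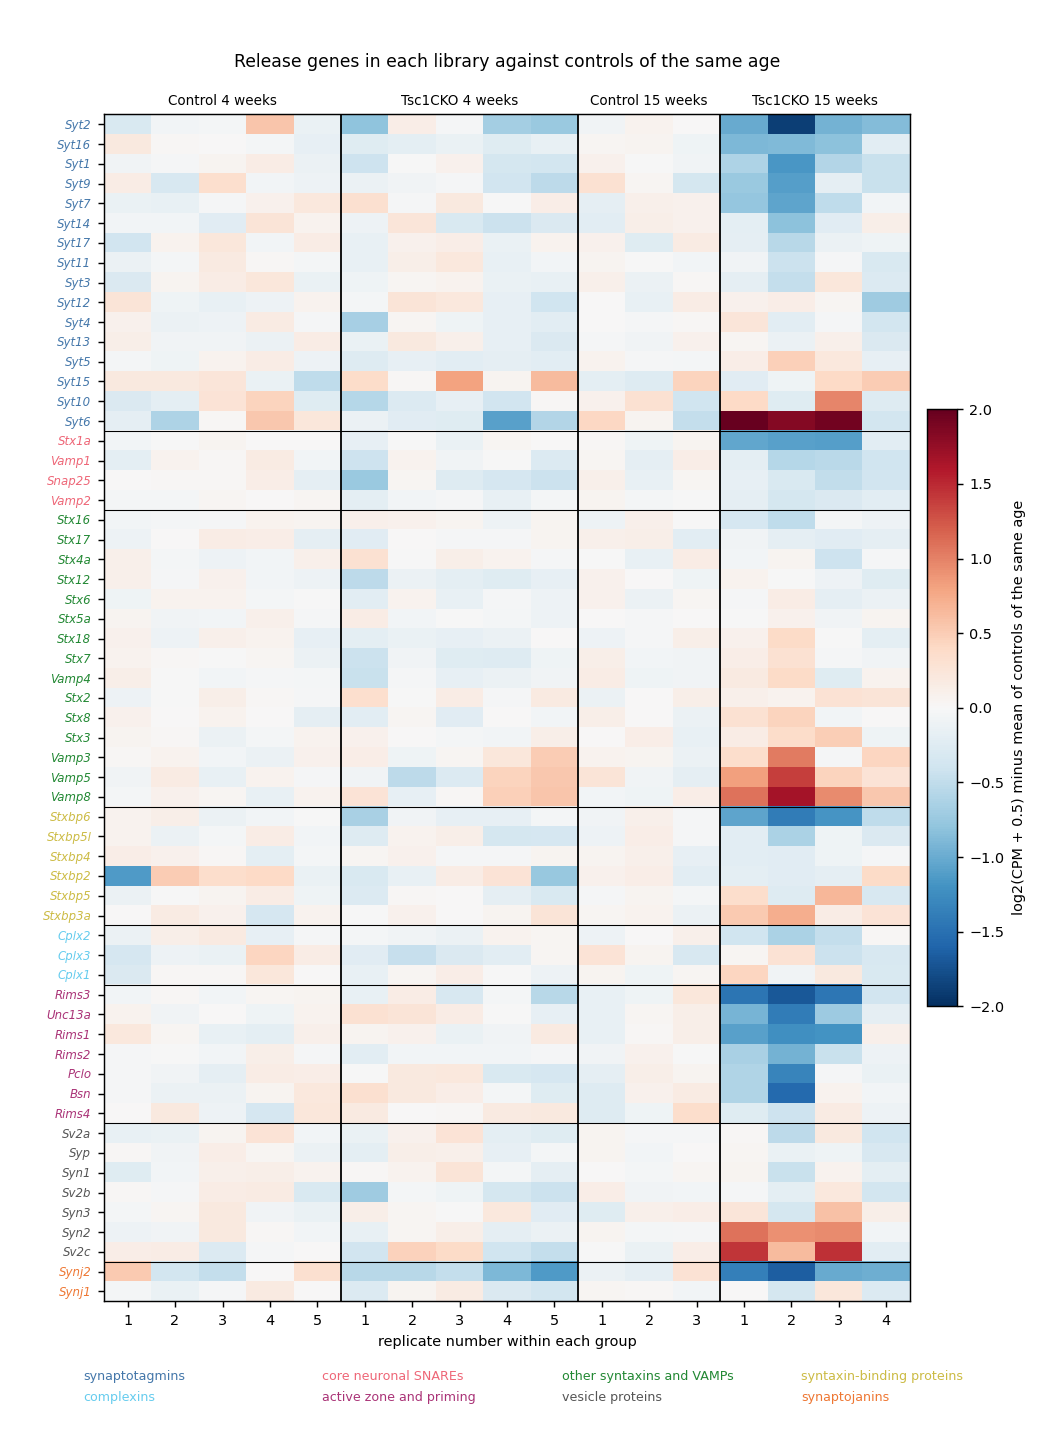
Tested release genes (rows, coloured by role and ordered by its 15-week fold change) in each of the 17 libraries (columns), as log2(CPM + 0.5) minus the mean of the controls of the same age, with blue below and red above. At 15 weeks Tsc1CKO replicates 1 to 3 share strong blue in Rims1, Rims3 and Stx1a and strong red in Syt6, Syn2 and Sv2c that replicate 4 lacks, while Synj2 is blue in all 4.

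Synaptojanins remove phosphates from membrane phosphoinositides during vesicle recycling, Synj1 at nerve terminals and Synj2 in many tissues. Synj2 (mm9 chromosome 17, 5941280 to 6044290, plus strand) was counted at 45, 37.3, 58.2 and 59.6 CPM in the 15-week Tsc1CKO libraries, in replicate order, and at 108, 104 and 143 CPM in the controls. All 4 Tsc1CKO values lay below all 3 controls, and the gene fell to 0.431 of the control level, a log2 change of -1.22 ± 0.20 (SE) with an adjusted p of 0.0219 (edgeR). At 4 weeks it was at 49, 49.2, 51.9, 38.7 and 32.6 CPM in Tsc1CKO and 104, 55.9, 51.8, 72.8 and 90.1 CPM in controls. There 4 of the 5 control libraries lay above every Tsc1CKO library, and the lowest control was level with the highest Tsc1CKO library. The 4-week log2 fold change was -0.74 ± 0.20 (SE), which did not pass with edgeR (adjusted p = 0.111) and did with DESeq2 (adjusted p = 0.0053). Synj2 shares 297 exonic bases with Serac1 on the opposite strand, and Serac1 had a 15-week log2 fold change of -0.21 (adjusted p = 0.497), so reads that cannot be assigned by strand are a limit on its value. Synj1 had log2 fold changes of -0.05 ± 0.16 (SE) at 15 weeks and -0.12 ± 0.10 (SE) at 4 weeks (adjusted p = 0.86 and 0.577, edgeR).

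Among the calcium sensors, Syt2, a fast sensor close to Syt1, was the 1 member called. Syt2 (mm9 chromosome 1, 136605877 to 136649726, plus strand) was at 24.8, 13.3, 25.9 and 27.5 CPM in 15-week Tsc1CKO and 47.9, 52.8 and 50.4 CPM in controls. Every Tsc1CKO library, replicate 4 included, lay well under the tight control values, and the log2 fold change was -1.11 ± 0.23 (SE) (adjusted p = 0.0391, edgeR). Pvalb, which marks fast-spiking interneurons that use Syt2, spanned 40.6 to 73.8 CPM in these libraries and 64.3 to 74.1 in controls, with a log2 change of -0.21 ± 0.19 (SE) (adjusted p = 0.5), and its part in the Syt2 value was not tested. Of the 8 inhibitory neuron genes on the list, Vip was called lower at -0.53 ± 0.11 (SE) (adjusted p = 0.0424), the log2 fold changes ran up to 0.93 for Sst, with 3 positive and 5 negative, and none was at 0 in any library. Their sum was 1639, 1362, 1075 and 867 CPM in the Tsc1CKO libraries, in replicate order, and 1061 to 1099 CPM in controls, and its part was not tested either. In a bulk sample, fewer cells of a type and less RNA per cell cannot be told apart, here or for any gene below. Syt1, the main sensor for fast release in the forebrain, stood at 1483, 1006, 1509 and 1672 CPM against 2399, 2253 and 2156 CPM, again with no overlap and with the lowest value in replicate 2. Its log2 fold change of -0.65 ± 0.18 (SE) missed the threshold with edgeR (adjusted p = 0.0738) and passed it with DESeq2 (adjusted p = 0.00701).

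Other synaptotagmins divided by library. Values without replicate 4 are given for the size of the change, since that library was picked by genes such as these. Syt6, a less studied relative, was at 79.1, 63.5, 67.8 and 13.4 CPM in 15-week Tsc1CKO and 23.4, 18.3 and 12.5 CPM in controls. Replicates 1 to 3 lay far above the controls and replicate 4 lay within their range, so the log2 fold change of 1.65 ± 0.51 (SE) had a wide error (adjusted p = 0.0934, edgeR) and was 1.97 ± 0.22 (SE) without replicate 4 (adjusted p = 0.000779). Syt7, a slow, high-affinity calcium sensor, was at 211, 174, 254 and 349.9 CPM against 319.6, 387 and 383 CPM, with replicate 4 the only Tsc1CKO library inside the control range. For Syt7 the log2 fold change was -0.52 ± 0.23 (SE) with all libraries and -0.75 ± 0.16 (SE) without replicate 4 (adjusted p = 0.201 and 0.0145, edgeR). Syt16, an atypical member without a membrane anchor, was at 60.03, 60.4, 63.4 and 96.7 CPM against 115, 116 and 106 CPM. Here replicate 4 was below every control but closest to them, and the log2 fold change was -0.65 ± 0.19 (SE) (adjusted p = 0.081; DESeq2, 0.0138). Of the 16 synaptotagmins tested, 12 had negative and 4 positive log2 fold changes, with a median of -0.15, where 7159 of all 15015 genes were negative. Syt11 and Syt4, which do not bind calcium, were at -0.18 and -0.05, and Syt3, Syt5, Syt9 and Syt12 at -0.13, 0.21, -0.61 and -0.06 (adjusted p from 0.199 to 0.873, edgeR).

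Of the core neuronal SNAREs, Snap25, Stx1a, Vamp1 and Vamp2 each had lower values in every 15-week Tsc1CKO library than in any control, and none of these 4 passed edgeR's threshold. Snap25 was at 3676, 3361, 2927 and 3185 CPM against 4425, 3755 and 4269 CPM, a log2 change of -0.31 ± 0.12 (SE) (adjusted p = 0.153; DESeq2, 0.0485). The gap between the groups was narrow, with the highest Tsc1CKO library just under the lowest control. Stx1a, a plasma membrane syntaxin of neurons (mm9 chromosome 5, 135499352 to 135526970, plus strand) was at 164, 160.2, 158 and 293 CPM against 345, 320.5 and 353 CPM. In replicates 1 to 3 it lay at about the same level, far below the controls, and in replicate 4 close under them. Its log2 fold change was -0.78 ± 0.23 (SE) (adjusted p = 0.0885, edgeR) and -1.07 ± 0.10 (SE) without replicate 4 (adjusted p = 0.000402). Vamp1 and Vamp2, the vesicle SNAREs, had log2 fold changes of -0.40 ± 0.13 (SE) and -0.23 ± 0.11 (SE) (adjusted p = 0.105 and 0.212).

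**Figure D2:**
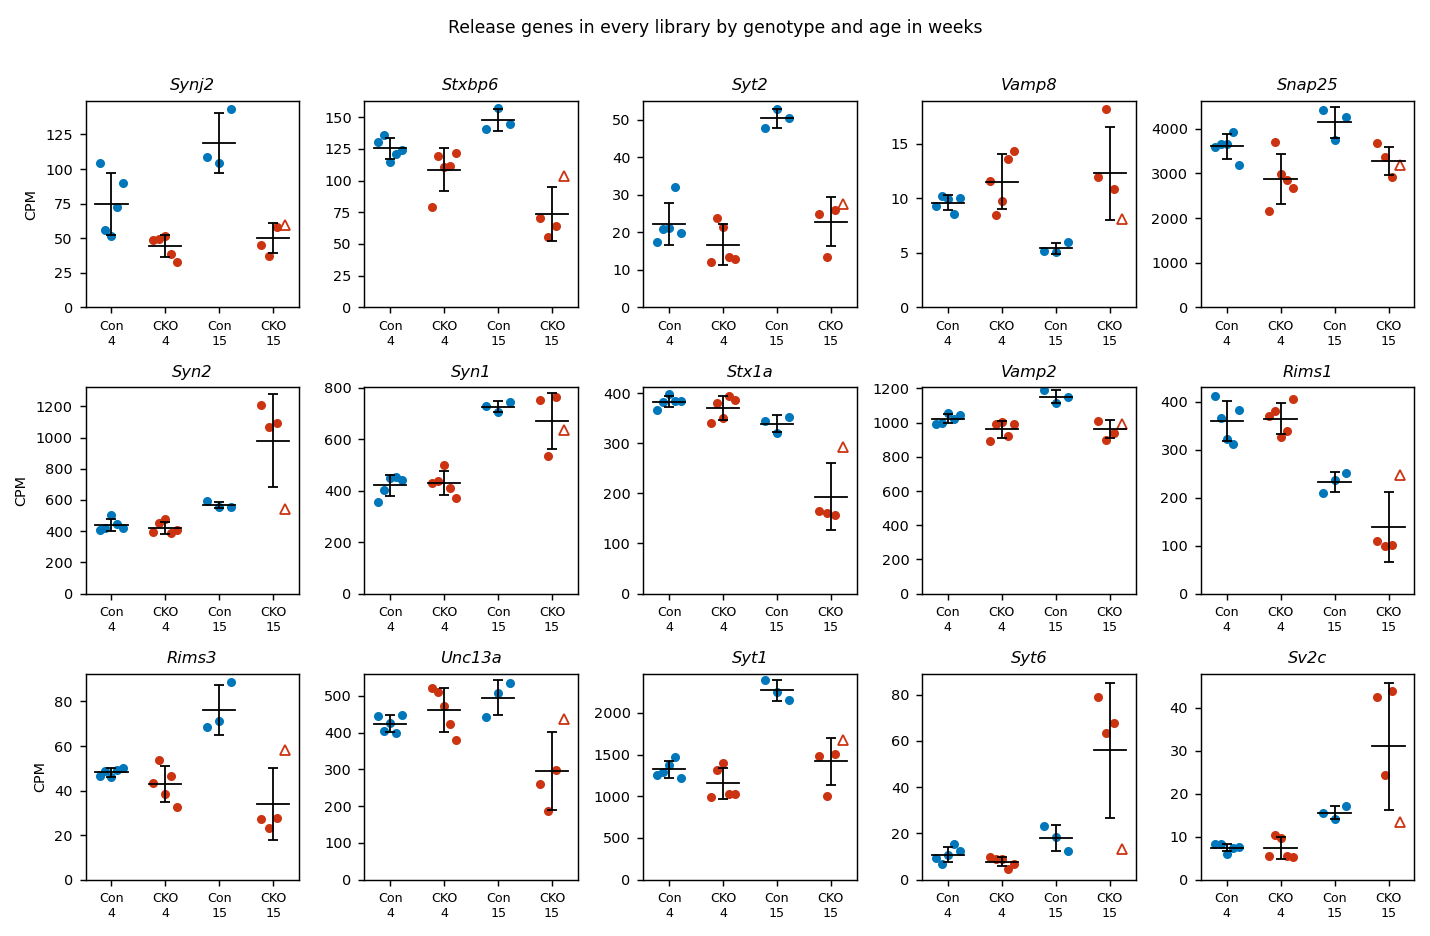
CPM of 15 release genes in every library, by genotype (Con, control, blue; CKO, Tsc1CKO, red) and age in weeks, with the mean and SD of each group in black and 15-week Tsc1CKO replicate 4 as an open triangle. The triangle lies with the controls for Syt6 and Rims1, near them for Syn2, Stx1a, Rims3 and Unc13a, and with the other Tsc1CKO libraries for Synj2, Syt2 and Snap25.

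Outside the neuronal core, more of the syntaxins and VAMPs of other membrane traffic had positive than negative values at 15 weeks. Of the 15 tested, 10 had positive log2 fold changes, beside 7856 of all 15015 genes. Their median was 0.12, and Vamp8, a SNARE of endosomes and of secretion in non-neuronal cells, was called higher. Vamp8 (mm9 chromosome 6, 72335217 to 72340697, minus strand) was at 12, 18.2, 10.9 and 8.09 CPM in Tsc1CKO and 5.21, 5.08 and 6 CPM in controls. It rose in all 4 libraries to 2.3 times the control level, with a log2 change of 1.20 ± 0.26 (SE) and an adjusted p of 0.0429 (edgeR). Vamp5 was at 2.95, 4.58, 2.14 and 1.84 CPM against 1.81, 1.35 and 1.21 CPM, a log2 change of 0.99 ± 0.35 (SE) (adjusted p = 0.126). The groups did not overlap for Vamp5, although replicate 4 lay only just above the highest control. Vamp3, the broadly expressed relative of Vamp2, had a log2 change of 0.53 ± 0.22 (SE) (adjusted p = 0.178). In Vamp8 and Vamp5 the Tsc1CKO libraries ran from replicate 2, the highest, through 1 and 3 to 4. The summed microglial genes had the same order at 830, 663, 443 and 439.5 CPM (286 to 332 CPM in controls), with replicates 3 and 4 nearly level. So did the 9 summed astrocyte genes at 14087, 13295, 11953 and 11640 CPM (6884 to 7836 CPM in controls). Of the 8 microglial genes 2 were called higher and of the 9 astrocyte genes 7, where 3.36% of all genes were. None was at 0 in any library. The log2 difference of long from short transcripts had this order too, at -1.01, -0.46, -0.064 and -0.0045 in replicates 2, 1, 3 and 4. Vamp8 and Vamp5 have 2311 and 1648 exonic bases. The part of either cell type or of transcript length in the VAMP values was not tested. The Golgi, endosomal and other syntaxins lay closer to 0: Stx2 at 0.21, Stx3 at 0.27, Stx5a at 0.05, Stx7 at 0.12, Stx12 at -0.05 and Vamp4 at 0.14 (adjusted p from 0.296 to 0.809).

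Syntaxin-binding proteins include chaperones of syntaxin and the inhibitory tomosyns. Stxbp6, or amisyn, which binds syntaxin through a VAMP-like coil, was the member called. Stxbp6 (mm9 chromosome 12, 45953475 to 46175480, minus strand) was at 70.4, 55.4, 64.6 and 104 CPM in 15-week Tsc1CKO and 141, 157 and 144 CPM in controls. Replicate 4 lay between the other Tsc1CKO libraries and the controls, all 4 lay below the controls, and the log2 fold change was -0.97 ± 0.21 (SE) (adjusted p = 0.0432, edgeR). The tomosyns Stxbp5 and Stxbp5l had log2 fold changes of 0.19 and -0.27, and Stxbp3a, a broadly expressed form, 0.47 ± 0.15 (SE) with every Tsc1CKO library above the controls (adjusted p = 0.624, 0.296 and 0.105). Among the complexins, which hold and then release the assembled SNAREs, Cplx1 had a log2 change of 0.11 ± 0.17 (SE), Cplx2 -0.32 ± 0.17 (SE) and Cplx3 -0.08 ± 0.20 (SE) (adjusted p = 0.7, 0.278 and 0.823). Cplx2 was at 1138, 964, 1079.5 and 1523 CPM against 1390.1, 1502 and 1605 CPM: replicates 1 to 3 lay below the controls, replicate 4 among them, and without replicate 4 the log2 fold change was -0.49 ± 0.11 (SE) (adjusted p = 0.0187).

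Each of the 7 active zone and priming genes had a negative log2 fold change at 15 weeks, as did 7159 of all 15015 genes. The median of the 7 was -0.48, and none passed edgeR's threshold. Rims1, a large scaffold that links vesicles to calcium channels, was at 109, 98.3, 101 and 247 CPM in Tsc1CKO and 209, 237 and 251 CPM in controls. Replicates 1 to 3 lay far below the controls and replicate 4 lay within their range. The log2 fold change of Rims1 was -0.71 ± 0.33 (SE) with all libraries (adjusted p = 0.216) and -1.17 ± 0.11 (SE) without replicate 4 (adjusted p = 0.000502, edgeR). Rims3, which encodes a short RIM form, was at 27.1, 23, 27.5 and 58.1 CPM against 68.4, 71.2 and 88.9 CPM, with log2 fold changes of -1.13 ± 0.31 (SE) and -1.54 ± 0.14 (SE) without replicate 4 (adjusted p = 0.0723 and 0.000418). Unc13a, or Munc13-1, which primes vesicles by opening syntaxin, was at 259, 186, 299 and 437 CPM against 443, 506 and 536 CPM. For both genes all 4 Tsc1CKO libraries lay below the controls, replicate 4 only slightly, and for Unc13a the log2 fold change was -0.71 ± 0.26 (SE) (adjusted p = 0.136) and -0.98 ± 0.18 (SE) without replicate 4 (adjusted p = 0.00802). Rims2 and Rims4, the other 2 RIM genes, had log2 fold changes of -0.48 ± 0.20 (SE) and -0.13 ± 0.20 (SE) (adjusted p = 0.179 and 0.691). The very large scaffolds Bsn and Pclo were lowest in replicate 2, at 290.1 and 237 CPM, the library in which long transcripts were low. Their log2 fold changes were -0.39 ± 0.34 (SE) and -0.41 ± 0.29 (SE) with all libraries and -0.15 and -0.21 without replicate 2 (adjusted p with all libraries = 0.492 and 0.386). Synj2, Syt1, Syt2, Rims1, Rims3 and Unc13a, with 6879 to 8565 exonic bases, were also lowest in replicate 2. Stxbp5, with 12975 exonic bases, was lowest in replicate 4. The part of transcript length in the values of these genes was not tested.

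The 3 synapsins, which coat vesicles and tether them in clusters, went separate ways. Syn2 (mm9 chromosome 6, 115084920 to 115232644, plus strand) was at 1210.5, 1069, 1094 and 544 CPM in 15-week Tsc1CKO and 593, 555 and 558 CPM in controls, so that replicates 1 to 3 were about level with each other and far above the controls and replicate 4 was just below them. The log2 fold change was 0.81 ± 0.24 (SE) (adjusted p = 0.0846, edgeR; DESeq2, 0.0175) and 1.00 ± 0.10 (SE) without replicate 4 (adjusted p = 0.000559). Syn1, the most abundant synapsin per length, was at 753, 535, 765 and 635 CPM against 731, 705 and 746 CPM, with Tsc1CKO libraries on both sides of the controls, and Syn3 at 76, 50.05, 96.2 and 69.2 against 54, 68.7 and 70.5 CPM. Their log2 fold changes were -0.09 ± 0.15 (SE) and 0.21 ± 0.22 (SE) (adjusted p = 0.728 and 0.564). An intron of Syn2 holds Timp4 on the opposite strand, with no exonic base shared. Timp4 was at 33.9, 33.8, 33.5 and 32.4 CPM in Tsc1CKO and 24.6, 23.2 and 22.1 CPM in controls (log2 fold change 0.54 ± 0.10 (SE), adjusted p = 0.0288), higher in replicate 4 too, where Syn2 was not. Syn3 shares 1733 exonic bases with Timp3, which had a log2 change of 0.85 ± 0.14 (SE) (adjusted p = 0.0194), so the Syn3 count is uncertain.

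The bases just before the start of Syn1 and Syn2 are shown because these paralogs stood apart in the data, and those of Stx1a because it had the most negative log2 fold change of the core SNAREs. RefSeq's table holds 2 entries for Syn2, and the upstream one is shown. The stretches are the 250 upstream bases of RefSeq's promoter table (build GRCm38.p6, which is not the mm9 build of the counts), in the direction of transcription, and the capitals mark exact matches to GGGCGG, the GC box, or TGACGTCA, the cyclic AMP response element (CRE), on either strand. No base belongs to more than 1 of these matches.
Syn1, chrX:20920919-20921168, minus strand: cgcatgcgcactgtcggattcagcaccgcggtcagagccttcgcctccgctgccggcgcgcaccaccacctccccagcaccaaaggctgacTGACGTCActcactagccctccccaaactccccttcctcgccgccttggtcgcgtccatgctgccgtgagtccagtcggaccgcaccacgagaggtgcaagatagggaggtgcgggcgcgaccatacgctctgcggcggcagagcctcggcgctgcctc
Syn2, chr6:115134652-115134901, plus strand: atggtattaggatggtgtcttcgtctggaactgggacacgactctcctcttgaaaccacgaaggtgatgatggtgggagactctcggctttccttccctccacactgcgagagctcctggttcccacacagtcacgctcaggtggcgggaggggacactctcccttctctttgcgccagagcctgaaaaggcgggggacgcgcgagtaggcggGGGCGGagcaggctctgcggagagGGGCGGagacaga
Stx1a, chr5:135023232-135023481, plus strand: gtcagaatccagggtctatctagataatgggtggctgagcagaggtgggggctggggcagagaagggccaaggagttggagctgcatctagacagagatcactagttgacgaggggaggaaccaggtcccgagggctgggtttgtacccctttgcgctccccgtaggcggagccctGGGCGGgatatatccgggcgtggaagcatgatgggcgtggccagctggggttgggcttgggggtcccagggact
The Syn1 stretch held 1 CRE and 0 GC boxes, the Syn2 stretch 2 GC boxes and 0 CREs, and that of Stx1a 1 GC box. The second Syn2 entry (chr6:115238744-115238993) held 0 GC boxes. Of the 67 entries for 50 members, 56.7% held a GC box and 1.5% a CRE. Over all 32851 promoters of the table, 32.7% held a GC box and 1.5% a CRE.

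The SV2 proteins, vesicle membrane glycoproteins of which SV2A is the target of the drug levetiracetam, showed a like division. Sv2c, the least abundant of them, was at 42.5, 24.4, 43.9 and 13.3 CPM in 15-week Tsc1CKO and 15.5, 14.2 and 17.1 CPM in controls. Replicates 1 to 3 lay above the controls and replicate 4 below them, and the log2 fold change was 1.02 ± 0.36 (SE) (adjusted p = 0.128, edgeR; DESeq2, 0.0445) and 1.26 ± 0.23 (SE) without replicate 4 (adjusted p = 0.00666). Sv2a and Sv2b had log2 fold changes of -0.12 ± 0.18 (SE) and -0.06 ± 0.15 (SE) and Syp, a widely used vesicle marker, -0.09 ± 0.12 (SE) (adjusted p = 0.696, 0.834 and 0.63). For Syp the interval of 2 SE around the log2 fold change was -0.33 to 0.14.

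Without Tsc1CKO replicate 4, the 12 members that edgeR called lower at 15 weeks were Cplx2, Rims1, Rims2, Rims3, Stx1a, Stxbp6, Synj2, Syt1, Syt16, Syt2, Syt7 and Unc13a, and the 5 called higher were Sv2c, Syn2, Syt6, Vamp5 and Vamp8. Since that library was picked by its values for release genes, these calls are not independent of the choice. Replicate 4 was not near the controls for the set as a whole. It lay below the control range for 36 of the 62 members, within it for 18 and above it for 8, where replicates 1, 2 and 3 lay below it for 25, 38 and 26. There were 5 members for which replicates 1 to 3 were all on the same side of the control range and replicate 4 was inside it: Cplx2, Rims1 and Syt7 below, and Stx3 and Syt6 above. The counterpart number was 1 for replicate 1, 0 for replicate 2 and 5 for replicate 3. Beside this, the astrocyte gene Gfap was at 3535, 5086, 2904 and 987 CPM in the Tsc1CKO libraries and 104 to 134 CPM in the controls, so replicate 4 was the lowest of the 4 and still far above the controls.

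**Figure D3:**
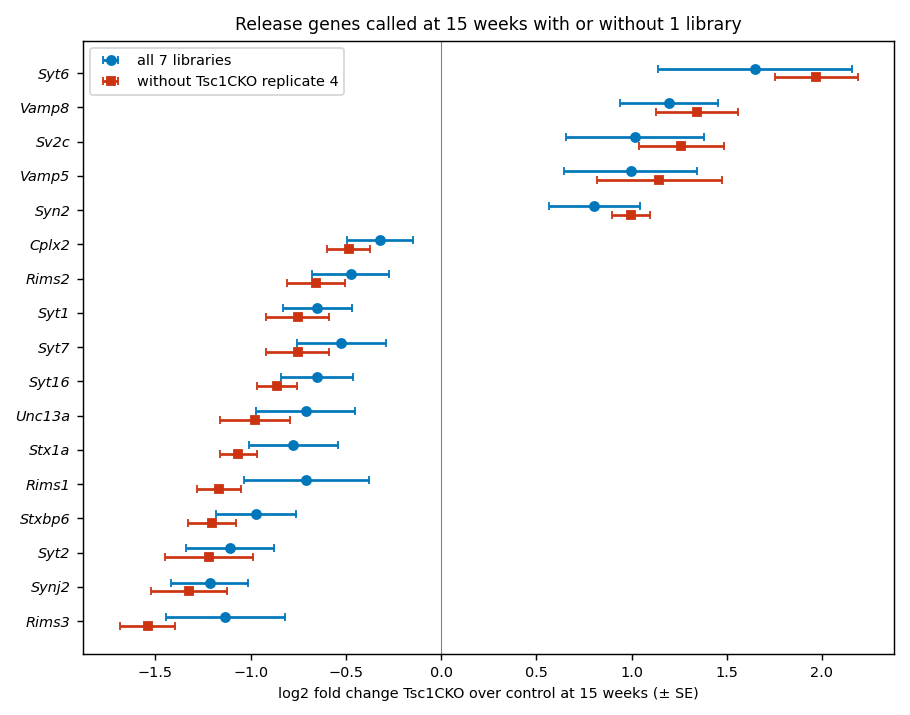
Log2 fold changes (points, with SE bars) of the 17 release genes called at 15 weeks with all 7 libraries or without Tsc1CKO replicate 4. Without that library Rims1 goes from -0.71 to -1.17 and Syn2 from 0.81 to 1.00, while Synj2 and Syt2 move little; since most of the genes were chosen for passing without it, a move away from 0 follows from the choice.

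Markers of cell types gave the following values beside these. The 17 measured neuronal genes outside the release machinery had a median log2 fold change of 0.02 at 15 weeks, with 0 of 17 called, and their summed level spanned 7836 to 9243 CPM in Tsc1CKO and 8408 to 9413 CPM in controls. The 8 excitatory neuron genes had a median of -0.47 with 0 called, where 0.42% of all genes were called lower. Of the 8, 7 were negative. At an unadjusted p under 0.05, 4 were lower and 0 higher, beside 1440 and 2352 of all 15015 genes. They summed to 6056 to 7739.6 CPM against 7875 to 10025 CPM, without overlap. Of the 9 astrocyte genes 7 were called higher, where 3.36% of all genes were, and the 9 summed to 11640 to 14087 CPM against 6884 to 7836 CPM. No marker in these 3 lists was at 0 in any library, and their part in the release gene values was not tested.

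At 4 weeks the second comparison found 0 of 62 tested members called by edgeR, where 0.0407% of all genes were called higher and 0% lower. At an unadjusted p under 0.05 there were 0 members higher and 7 lower, beside 1448 higher and 1321 lower of all 14754 genes tested. The median log2 fold change of the members was -0.04, beside 0.0042 over all genes. DESeq2 called 2 members lower, Synj2 and Syt5 (background 1.68%), and 0 higher (background 2.81%). Syt5 was at 102, 108, 105, 107 and 105 CPM in Tsc1CKO and 119, 114, 127, 135 and 113 CPM in controls, a small difference without overlap (log2 fold change -0.19 ± 0.06 (SE), adjusted p = 0.134 with edgeR and 0.0377 with DESeq2). Stx12, an endosomal syntaxin, was the other member whose groups did not overlap, at 99.2 to 131 against 133 to 153 CPM (log2 fold change -0.23 ± 0.08 (SE), adjusted p = 0.143). Such separation was seen for 1.76% of all genes downward and for 1.58% upward, where 0 members lay. Snap25 was at 2157, 3695, 2994, 2858 and 2675 CPM against 3604, 3660.5, 3654, 3929 and 3179.6 CPM, with a log2 change of -0.31 ± 0.12 (SE) (adjusted p = 0.17, edgeR). Replicate 2 was the only Tsc1CKO library above the lowest control, and without it the log2 fold change of Snap25 was -0.42 (adjusted p = 0.0375) and Snap25 was the only member called lower (background 1.05%; 0 members higher, background 2.93%). Since replicate 2 was picked by its Snap25 value, the smaller p without it follows in part from that choice. That replicate 2 also had the lowest astrocyte sum of the 4-week Tsc1CKO libraries, 10232 CPM beside 10838 to 14588 in the other 4 and 6613 to 11071 in the controls. It had the highest Gh of all 17 libraries as well, at 347 CPM, and the part of either in the Snap25 value was not tested. All 9 astrocyte, 6 endothelial and 5 oligodendrocyte precursor genes had positive 4-week log2 fold changes, with medians of 0.46, 0.49 and 0.43, and 0 were called by edgeR (7, 5 and 5 at an unadjusted p under 0.05). The endothelial genes summed to 202 to 255 CPM against 109 to 203, and the precursor genes to 198 to 272 CPM against 139 to 195. All 8 inhibitory neuron genes were negative (median -0.13) and summed to 616 to 753 CPM against 766 to 841. Of the 8 excitatory neuron genes 6 were negative (median -0.10), and of the 8 microglial genes 7 were positive (median 0.25). The 17 neuronal genes outside the machinery had a median of -0.05. In these lists 0 were called by edgeR. None was at 0 in any library, and their part in the release gene values was not tested.

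The values of the members at 4 weeks were as follows, beside those of Synj2, Syt5, Stx12 and Snap25 above. Syn2 was at 396, 449, 475, 386 and 406 CPM in 4-week Tsc1CKO and 409, 419, 501, 444 and 422 CPM in controls, with intermingled values and a log2 change of -0.04 ± 0.08 (SE). Stx1a had -0.04 ± 0.06 (SE), Rims1 0.03 ± 0.09 (SE), Rims3 -0.15 ± 0.11 (SE), Unc13a 0.13 ± 0.09 (SE) and Sv2c -0.02 ± 0.20 (SE) on the same log2 scale (adjusted p from 0.456 to 0.977). Vamp8 had 0.28 ± 0.14 (SE), Vamp3 0.19 ± 0.10 (SE), Stx2 0.15 ± 0.09 (SE) and Syt7 0.14 ± 0.09 (SE) (adjusted p = 0.299, 0.307, 0.384 and 0.437). Stxbp6 had -0.19 ± 0.10 (SE) (adjusted p = 0.298), and Syt2 had -0.40 ± 0.21 (SE), Syt6 -0.47 ± 0.22 (SE), Syt16 -0.18 ± 0.07 (SE), Stx7 -0.20 ± 0.07 (SE) and Sv2b -0.30 ± 0.12 (SE) (adjusted p = 0.344, 0.285, 0.186, 0.165 and 0.208). The most positive value, 0.69 ± 0.34 (SE) for Syt15, rested on levels of 0.626 to 1.45 CPM against 0.283 to 0.81 CPM (adjusted p = 0.283). Other core genes lay between -0.24 and 0.12: Syt1 at -0.19, Vamp1 at -0.12, Vamp2 at -0.08, Syn1 at 0.04, Syn3 at 0.05, Syp at -0.02, Sv2a at -0.02, Rims2 at -0.07, Rims4 at 0.12, Bsn at 0.10, Pclo at -0.02, Cplx1 at -0.01, Cplx2 at -0.01 and Cplx3 at -0.24.

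**Figure D4:**
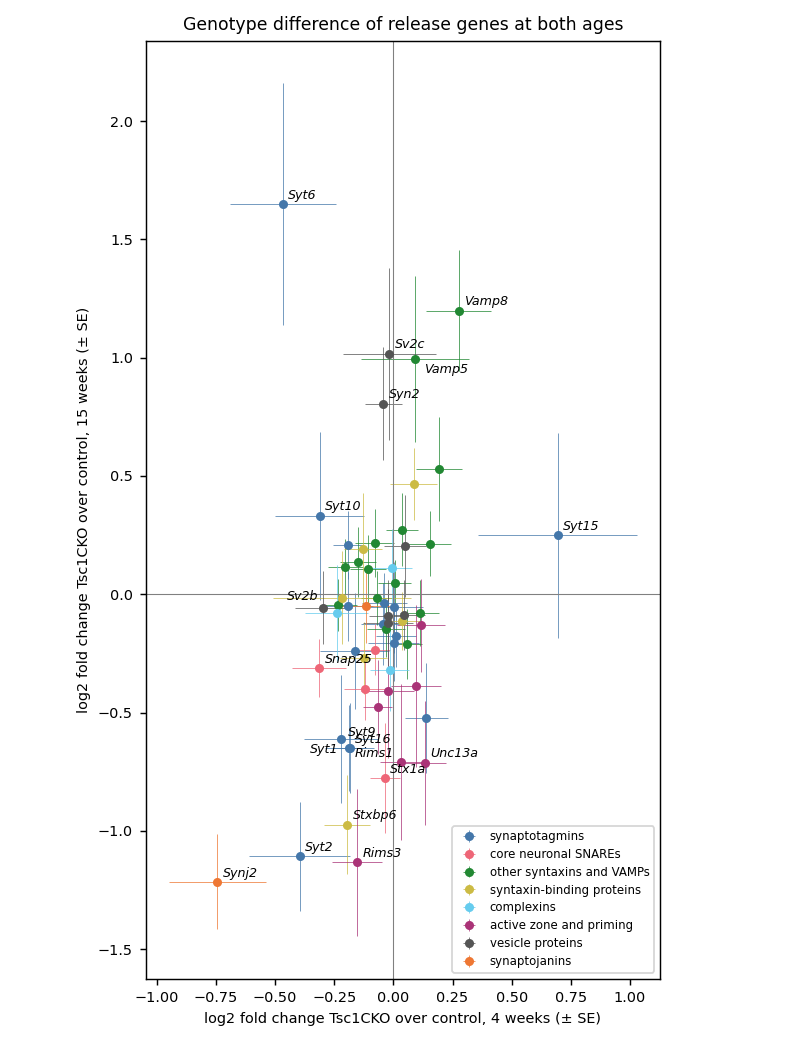
Log2 fold change of Tsc1CKO over control at 4 weeks (horizontal axis) and at 15 weeks (vertical axis) for release genes tested at both ages, with SE bars and colours by role. The points spread from -1.22 (Synj2) to 1.65 (Syt6) along the vertical axis and from -0.74 (Synj2) to 0.69 (Syt15) along the horizontal axis.

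Whether the genotype difference itself changed between 4 and 15 weeks was tested over all 17 libraries. With edgeR 0 of 63 members passed (background 0.174% higher and 0.0387% lower), and 6 more positive and 12 more negative ones had an unadjusted p under 0.05. Of all 15492 genes tested, 1967 more positive and 1918 more negative ones had such a p. DESeq2 called 7 members: the effect was higher at 15 weeks for Syn2, Syt6 and Vamp8 (background 3.76%) and lower for Rims3, Stx1a, Stxbp6 and Unc13a (background 2.64%). The differences of log2 fold changes, 15 weeks minus 4 weeks, were 2.10 ± 0.57 (SE) for Syt6, 0.83 ± 0.23 (SE) for Syn2, 0.90 ± 0.28 (SE) for Vamp8 and 1.01 ± 0.42 (SE) for Sv2c (adjusted p = 0.0749, 0.0749, 0.0885 and 0.15 with edgeR). In the other direction they were -1.01 ± 0.30 (SE) for Rims3, -0.87 ± 0.25 (SE) for Unc13a, -0.81 ± 0.22 (SE) for Stxbp6 and -0.77 ± 0.21 (SE) for Stx1a (adjusted p = 0.0816, 0.0752, 0.0743 and 0.0748). Syt7 and Syt16 followed at -0.69 and -0.49, and Syt5 and Stx7 at 0.38 and 0.29 (adjusted p from 0.0971 to 0.179). For Synj2, Syt2 and Snap25 the differences were -0.50 ± 0.30 (SE), -0.74 ± 0.33 (SE) and -0.02 ± 0.18 (SE) (adjusted p = 0.298, 0.177 and 0.948). Without 15-week Tsc1CKO replicate 4, edgeR called 16 members: higher for Sv2c, Syn2, Syt5, Syt6 and Vamp8 (background 11.2%) and lower for 11 (background 11.4%), among them Cplx2, Rims1, Rims2, Rims3, Stx1a, Stxbp6, Syt1, Syt16, Syt7 and Unc13a. The authors' deposited table for 15 weeks holds this difference between ages and not the 15-week comparison, and it lists 7 members: Rims3 (-1.01), Unc13a (-0.87), Stxbp6 (-0.80), Stx1a (-0.77), Syn2 (0.83), Vamp8 (0.90) and Syt6 (2.11), as log2 values. The authors' deposited table for 4 weeks lists 2, Synj2 (-0.75) and Syt5 (-0.20).

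The last comparison was of age, in the controls alone. Of 63 tested members, 29 were higher at 15 than at 4 weeks and 11 were lower (edgeR, adjusted p under 0.05), where 22.4% of all genes were called higher and 19.3% lower. The median log2 fold change of the members was 0.21, beside -0.0012 over all genes. All 7 vesicle proteins were called higher. Sv2c rose by 1.07 ± 0.13 (SE), Sv2a by 0.89 ± 0.09 (SE), Syn1 by 0.80 ± 0.08 (SE) and Syp by 0.29 ± 0.07 (SE) on the log2 scale (adjusted p = 6.52e-05, 3.65e-05, 3.98e-05 and 0.00766). Syn2, Syn3 and Sv2b rose by 0.38, 0.46 and 0.27 (adjusted p = 0.00178, 0.00286 and 0.0488). The Sv2b call was close to the threshold and held in 6 of 19 alternative fits, and the Syn3 count is uncertain as said above. Syn1 was at 356, 403, 449.8, 454 and 442 CPM in the 5 controls of 4 weeks and 731, 705 and 746 CPM in the 3 of 15 weeks, with a wide gap between the ages.

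Of the synaptotagmins 9 of 16 were called higher with age and 1, Syt16, lower, at -0.32 ± 0.08 (SE) (adjusted p = 0.00867). Over all genes 22.4% were called higher and 19.3% lower. Syt2 had the largest rise of any member, from 17.4, 20.8, 21.1, 32.1 and 19.7 CPM to 47.9, 52.8 and 50.4 CPM, a log2 change of 1.19 ± 0.15 (SE) (adjusted p = 0.000179, edgeR). In Tsc1CKO, Syt2 spanned 12.2 to 23.8 CPM at 4 weeks and 13.3 to 27.5 CPM at 15 weeks. Of the 15-week Tsc1CKO libraries, 3 of 4 lay within the range of the 4-week controls. That range reached 32.1 CPM through control replicate 4 alone, and the next highest control, at 21.1 CPM, lay below those 3 libraries. Syt1 rose by 0.79 ± 0.08 (SE) (adjusted p = 3.08e-05), and Syt6, Syt11, Syt3, Syt9, Syt12, Syt4 and Syt5 by 0.74, 0.53, 0.53, 0.53, 0.44, 0.38 and 0.24. The calls of Syt6 and Syt9 held in 8 and 12 of 19 alternative fits. Syt7 did not pass, at 0.08 ± 0.10 (SE) (adjusted p = 0.511). Of the core SNAREs, Vamp1 and Vamp2 rose by 0.39 and 0.18, while Snap25 at 0.21 ± 0.09 (SE) and Stx1a at -0.17 ± 0.06 (SE) did not pass (adjusted p = 0.061 and 0.0545).

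Of the 16 syntaxins and VAMPs tested outside the neuronal core, 8 were called lower with age and 0 higher, beside 19.3% and 22.4% of all genes. The other 8 did not pass, and 5 of the 16 had positive log2 fold changes, up to 0.11. Vamp8 fell by 0.81 on the log2 scale, Vamp5 by 0.76, Vamp3 by 0.66 and Vamp4, a SNARE of the trans-Golgi, by 0.40 (adjusted p = 0.000445, 0.0149, 0.000109 and 0.00152). The plasma membrane syntaxins Stx2 and Stx3 were at -0.41 and -0.51, the Golgi syntaxin Stx5a at -0.25 and the endosomal Stx7 at -0.26 (adjusted p = 0.00572, 0.000801, 0.0129 and 0.0132). Vamp8 went from 8.56 to 10.2 CPM at 4 weeks to 5.08 to 6 CPM at 15 weeks in controls and from 8.46 to 14.3 to 8.09 to 18.2 CPM in Tsc1CKO, so 3 of the 4 older Tsc1CKO libraries were above the 4-week control range.

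**Figure D5:**
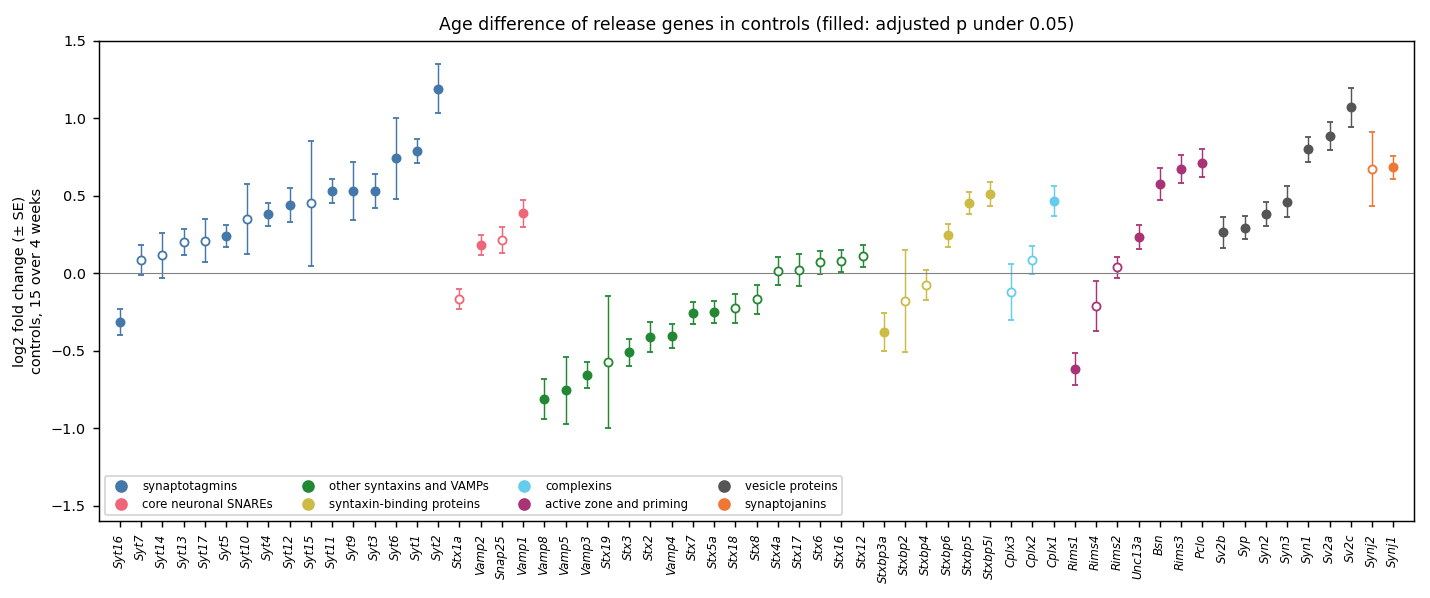
Log2 fold change of tested release genes in controls, 15 over 4 weeks, with SE bars, grouped by role and ordered within it; filled points passed an adjusted p of 0.05. The vesicle proteins are all filled and above 0, from 0.27 for Sv2b to 1.07 for Sv2c, and the filled points among the other syntaxins and VAMPs are all below 0.

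The active zone was divided by age as well. Pclo, Rims3 and Bsn rose by 0.71 ± 0.09 (SE), 0.67 ± 0.09 (SE) and 0.57 ± 0.10 (SE) and Unc13a by 0.23 ± 0.08 (SE) (adjusted p = 0.000126, 0.000126, 0.00104 and 0.0317). Rims1 was lower, from 412, 367, 322, 312 and 383 CPM at 4 weeks to 209, 237 and 251 CPM at 15 weeks (log2 fold change -0.62 ± 0.10 (SE), adjusted p = 0.000564), the reverse of Rims3. Rims2 and Rims4 did not pass, at 0.04 and -0.21 (adjusted p = 0.676 and 0.313). The tomosyns Stxbp5l and Stxbp5 rose by 0.51 and 0.45 and Stxbp6 by 0.24, while Stxbp3a fell by 0.38 (adjusted p = 0.00032, 0.000416, 0.0182 and 0.0251). Cplx1 rose by 0.47 ± 0.09 (SE) (adjusted p = 0.00204), with Cplx2 at 0.08 and Cplx3 at -0.12 not passing. Synj1 rose by 0.68 ± 0.07 (SE) (adjusted p = 4.55e-05), and Synj2, at 0.67 ± 0.24 (SE), did not pass (adjusted p = 0.0544). The 2 ages carry separate series of library codes, so age and any difference in handling cannot be told apart. The 9 astrocyte genes had a median of -0.42 with age (4 lower, 0 higher), and the 17 neuronal genes outside the machinery one of 0.20 (9 higher, 3 lower). Over all genes 22.4% were called higher and 19.3% lower.

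A list of 64 further genes of the release pathway, chosen by role, was read beside the members, and 63 of them were tested. At 15 weeks 1 was called, Cacna2d3, a calcium channel subunit, lower at -0.72 ± 0.15 (SE) (adjusted p = 0.0377, edgeR), where 0.42% of all genes were called lower and 3.36% higher. The list's median was -0.07. Next were Cacnb4, another channel subunit, at -0.62 ± 0.15 (SE) (adjusted p = 0.0523), Snap23, the broadly expressed relative of Snap25, at 0.73 ± 0.19 (SE) (adjusted p = 0.064) and the synaptogyrin Syngr2 at 0.65 ± 0.18 (SE) (adjusted p = 0.0774). At 4 weeks 0 passed with edgeR, led by Dnm2 at 0.38, Unc13b at 0.18, Synpr at -0.47 and Cacna2d1 at -0.31. At an unadjusted p under 0.05 there were 3 positive and 13 negative, beside 1448 and 1321 of all 14754 genes. For the difference between ages 0 passed with edgeR, with Synpr at 1.00, Snap23 at 0.56, Cacna2d3 at -0.64 and Rph3a at -0.95. Here 8 were positive and 12 negative at an unadjusted p under 0.05, beside 1967 and 1918 of all 15492 genes. With age in controls 36 genes of the list were higher and 5 lower, where 22.4% of all genes were called higher and 19.3% lower. The called genes of the list included the dynamin Dnm3 at 1.04 ± 0.09 (SE), the inhibitory vesicle transporter Slc32a1 at 0.78 ± 0.07 (SE) and Snap23 at -0.96 ± 0.10 (SE).

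The members that passed no filter were Cplx4, Stx11, Syt8 and Vamp7, with totals over the 17 libraries of 11, 63, 9 and 0 reads. Vamp7 was also the only member without a unique match by symbol in GENCODE vM1, so its 0 reads do not show that it is not expressed. Stx19 had 128 reads and was tested only for age and for the difference between ages, passing neither. A further 12 members (Stx4a, Stx6, Stx8, Stx16, Stx17, Stx18, Stxbp2, Stxbp4, Syt10, Syt13, Syt14 and Syt17) passed none of the 4 edgeR tests. Their log2 fold changes ran from -0.24 (Syt14) to 0.33 (Syt10) at 15 weeks, from -0.31 (Syt10) to 0.11 (Stx4a) at 4 weeks and from -0.22 (Stx18) to 0.35 (Syt10) with age.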

How the data were processed

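RNA was extracted with Trizol from frozen cortex, and libraries for reads of 100 bases were made with an Illumina TruSeq kit after poly-A enrichment of RNA with an integrity number of at least 9.8, per the labels. Per the submitters' processing notes, bcl2fastq 1.8.4 and Tophat 2.0.4 were used and reads were mapped to mm9. How reads were counted, with what annotation and with or without strand, is not given in the sources used here, and overlapping genes are therefore uncertain. The deposited count table holds whole-number counts per gene symbol, not normalized by the authors. The comparison tables give, as deposited, the authors' normalized signal (counts over a size factor), log2 fold changes, a score (the authors' test statistic) and p-values. Refitting with DESeq2 returned the 594 fold changes of the 4-week table as the genotype difference at 4 weeks, and the 1062 of the 15-week table as the difference between ages, within 0.001 on the log2 scale.

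The counts were fitted on all genes with edgeR 4.0.16 in R 4.3.3 (TMM factors, filterByExpr by group, robust quasi-likelihood test, Benjamini-Hochberg adjustment over all genes tested, called under 0.05). Genotype was tested within each age, the difference between ages over all 17 libraries, and age in the controls. Standard errors are the log2 fold change over the square root of F. Levels are TMM-scaled CPM over all genes, and RPKM divides these by the exon length of GENCODE vM1 (mm9), from which 1-based positions come. Promoters are from RefSeq (GRCm38.p6). The scripts were tested on simulated data. Replicate pairs within a group differed by 6.81 to 91.3 chi-square per degree of freedom over 29 pairs, so none was counted as a repeat.

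The members, lists and tests were chosen with earlier results of these data known. Genes named whatever their values were the core members of each role; counts cover all members, but 2 members and 1 gene of the pathway list are not reported here. The rule added every member called in a test, the 6 smallest p-values per direction in each test, and, of the pathway list, those called or with the 2 smallest p-values per direction; for age in that list only those with the smallest p-values are named. Alternatives were DESeq2 1.42.0, limma 3.58.1 (voom with quality weights), RLE factors, other filters, an unrobust fit, an adjusted p of 0.1, no Rn45s reads, Gh as a covariate, the replicate number as a block, 1 fit of all libraries, and each library left out. DESeq2 without 15-week Tsc1CKO replicate 4 was added after seeing the data.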

Additional observations from a re-analysis of the deposited data

Results flagged for a closer look

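In 10 of 144 checks (48 members in the 3 groups of 4 or 5 libraries), the highest or lowest library lay further from its neighbour than Dixon's 95% critical value allows. Chance flags about 1 group in 20. Of these, 5 were in 15-week Tsc1CKO replicate 4, which was the highest of its group for Rims1 at 247 CPM (next 109), Rims3 at 58.1 CPM (next 27.5), Stx1a at 293 CPM (next 164) and Syt16 at 96.7 CPM (next 63.4), and the lowest for Syt12 at 19.9 CPM (next 33.9). At 4 weeks Tsc1CKO replicate 1 was the lowest of its group for Rims2 at 162.5 CPM (next 180) and Stxbp6 at 79.6 CPM (next 111). Control replicate 4 was the highest of the 4-week controls for Rims2 at 204 CPM (next 187) and Syt2 at 32.1 CPM (next 21.1), and control replicate 1 for Vamp4 at 102 CPM (next 94.1).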

How the results depend on the processing

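The 15-week counts (1 higher and 3 lower) depended on the setting: 3 and 10 with DESeq2, 6 and 15 with limma voom, 3 and 7 at an adjusted p of 0.1, 6 and 15 with all 17 libraries in 1 fit. With Gh as a covariate 0 were called higher. Leaving out 1 library gave 0 to 7 higher and 0 to 15 lower, the top of both with DESeq2 and without Tsc1CKO replicate 4. At 4 weeks 0 became 2 lower with DESeq2 and 0 to 1 with a library left out. For the difference between ages (0 and 0), DESeq2 gave 3 higher and 4 lower, voom 6 and 13, an adjusted p of 0.1 3 and 5, and libraries left out 0 to 5 and 0 to 11. Its median of -0.10 was -0.024 with voom and -0.13 to -0.026 with a library left out. For age, Gh as a covariate gave 7 lower in place of 11, and the median ran from 0.17 to 0.23 with a library left out. The cause of these shifts was not tested. The replicate number was also fitted as a replicate block: it gave 5 higher and 12 lower at 15 weeks and 5 and 9 for the difference between ages, and Sv2b at 15 weeks turned to 0.0095. At 15 weeks the block left out Tsc1CKO replicate 4, which had no control of its number. Same-numbered libraries correlated by -0.13 to 0.20 at 15 weeks and -0.14 to 0.045 at 4 weeks, with 0 of 8 matching their own number best. So few pairs cannot tell whether such libraries shared more than a number. Log2 fold changes near 0 turned sign: at 15 weeks with voom Syn1 (0.0022), and with Gh as a covariate Syn1 (0.041), Sv2a (0.0070), Rims4 (0.15), Bsn (0.10) and Synj1 (0.060). At 4 weeks these were Cplx1 with voom (1e-04) and, with Gh as a covariate, Sv2a (0.038), Sv2c (0.025), Rims1 (-0.0032), Pclo (0.053) and Cplx1 (0.044). With 1 library left out, the 15-week ranges that crossed 0 were Syn1 -0.16 to 0.0067, Synj1 -0.17 to 0.032, Cplx3 -0.23 to 0.065, Sv2b -0.17 to 0.019 and Rims4 -0.26 to 0.069. At 4 weeks they were Syp -0.063 to 0.011, Sv2c -0.18 to 0.074, Cplx1 -0.076 to 0.042, Syn1 -0.020 to 0.087, Cplx2 -0.060 to 0.027, Syn3 -0.0034 to 0.10, Sv2a -0.11 to 0.044, Pclo -0.092 to 0.039, Rims1 -0.019 to 0.085 and Syn2 -0.090 to 0.0044. For the difference between ages 15 members were refitted, and of these Snap25 changed sign: 0.078 with voom, 0.0061 with a filter at 1 CPM, 0.0038 with the replicate block and -0.11 to 0.079 with a library left out. For age 46 were refitted, and 3 changed sign: with Gh as a covariate Syt7 (-0.10) and Rims2 (-0.0074), with the replicate block Cplx3 (0.084), and with a library left out Rims2 (-0.0042 to 0.076) and Cplx3 (-0.27 to 0.032). Of 19 alternatives, the 15-week call held in 15 for Synj2, 14 for Syt2 and 13 each for Stxbp6 and Vamp8. The age call held in 6 of 19 for Sv2b, 8 for Syt6, 9 for Vamp2, 11 for Unc13a and 12 for Syt9. It held in all 19 for Sv2a, Syn1, Syt1 and Syt2, among others. Vamp5, Syt15 and Stx19 stood at a few CPM or less, where counting error is largest.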
